A study of Mus musculus with 17 samples.

Results

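The genes described here encode proteins with which endothelial cells hold on to each other: the cadherins Cdh5 (VE-cadherin) and Cdh2 (N-cadherin), the adhesion receptors Pecam1 (CD31), Esam, F11r (JAM-A), Jam2 (JAM-B) and Jam3 (JAM-C), the tight junction proteins Cldn5 (claudin 5) and Ocln (occludin), and the scaffold Tjp1 (ZO-1). They were chosen by name for this shared role, without use of a threshold, and make up 10 of the 19937 genes with a probe set of their own on the arrays. All 10 were measured, each by 1 probe set that names no other gene, and none was removed by a filter.

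Transcripts were read on 17 Affymetrix Mouse Gene 1.0 ST arrays of cells from the aorta-gonad-mesonephros (AGM) region of pooled mouse embryos at E11.5. All cells had been sorted for surface CD31 and for lack of CD45 and Ter119. Kit- (endothelium) and Kit+ (the fraction that contains the haematopoietic clusters) were sorted without culture, with 3 arrays each. The same CD31+ cells were also laid for 2 h, with cytokines, on OP9, a mouse bone marrow stromal line, made to overexpress the Notch ligand Jag1 or Dll4, and then sorted again by Kit: Kit-J (2 arrays) and Kit+J (3 arrays) came from OP9-Jag1, Kit-D and Kit+D (3 arrays each) from OP9-Dll4. The study states that 1 Kit-J sample was left out for technical reasons and that the replicates come from independent sorts. Of OP9 without an added ligand no array was analysed here. The 6 uncultured arrays belong to a set deposited earlier, and an effect of culture cannot be told apart from one of the array set in any comparison with them. Pecam1 encodes the protein by which every sample was gated.

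VE-cadherin holds neighbouring endothelial cells together at adherens junctions, where catenins tie its tail to actin, and the phosphatase encoded by Ptprb binds it. Claudin 5 forms the strands of endothelial tight junctions, ZO-1 joins claudins, occludin and the JAM proteins to the cytoskeleton, and PECAM-1 and ESAM are immunoglobulin-like receptors at endothelial contacts. In the embryonic aorta, haematopoietic cells bud from the endothelial lining and loosen these contacts as they round up into clusters. The comparisons ask how the transcripts of these proteins differ between endothelium and cluster-containing cells, and after contact with either Notch ligand.

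Of the members, Cldn5, Tjp1, F11r and Ocln have an entry in the RefSeq promoter table (GRCm38.p6), and the 250 bases before the start are shown for the pair of them whose signal passed the test in at least 1 comparison. Cdh5, Cdh2, Pecam1, Esam, Jam2 and Jam3 have no entry. Capitals mark GGGCGG (GC box) and CGGAAG (an ETS-type core) on either strand. The regions are chr16:18776597-18776846 (plus strand) for Cldn5 and chr7:65371245-65371494 (minus strand) for Tjp1, each written 5′ to 3′ on the strand of the gene.
Cldn5: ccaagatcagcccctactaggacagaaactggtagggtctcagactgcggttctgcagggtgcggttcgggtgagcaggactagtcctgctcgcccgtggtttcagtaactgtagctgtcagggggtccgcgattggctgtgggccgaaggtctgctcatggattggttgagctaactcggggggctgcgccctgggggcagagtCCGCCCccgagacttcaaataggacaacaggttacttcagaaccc
Tjp1: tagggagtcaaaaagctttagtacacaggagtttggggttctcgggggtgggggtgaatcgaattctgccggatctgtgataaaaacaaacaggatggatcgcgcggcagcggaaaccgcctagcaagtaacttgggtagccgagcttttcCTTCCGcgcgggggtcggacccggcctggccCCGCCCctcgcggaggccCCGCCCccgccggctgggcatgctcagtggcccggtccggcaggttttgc
GGGCGG was found once before Cldn5 and at 2 places before Tjp1, and 32.7% of all 32851 promoter regions of this length hold it on either strand. CGGAAG was found once before Tjp1 and is held by 13.6% of the regions. TGGGAA, the core letters of sites of the Notch partner RBPJ, was in neither window and is held by 21.6% of the regions. These matches describe the letters in these windows and nothing about a factor at them.

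Some arrays stood apart or carried conflicting labels. The log2 signal of Ptprc, the gene of CD45, was 4.46 and 4.16 on Kit-D replicates 2 and 3. On Kit+D replicates 2 and 3 it was 5.54 and 4.64. On all other arrays it ran from 7.38 to 9.195, although the cells had been sorted for lack of CD45. The part of this split in the results below was not tested. For replicates 1 and 2 of Kit-J and replicate 3 of both Kit-D and Kit+D, 1 line of the record names the opposite Kit fraction, while titles and sources give the groups used here. The log2 signal of Kit, the gene of the gated receptor, was 8.13 to 8.29 on the Kit- arrays and 9.44 to 9.55 on the Kit+ arrays. After culture, Kit-D ranged from 7.05 to 8.02, Kit+D from 8.51 to 8.995 and Kit+J from 9.02 to 9.93. On the Kit-J arrays it was 9.08 and 8.50, above every Kit- array and below every Kit+ array. Kit-J replicate 1 also lay above every Kit+D array and above Kit+J replicate 2 (9.02), while Kit-J replicate 2 lay below these. The mean of 13 endothelial markers that are no members here (Kdr, Tek and others) was 8.41 to 8.49 in Kit- and 8.53 to 8.99 in Kit-D, and the other groups lay lower, at 6.14 and 6.62 in Kit-J, 5.57 to 5.69 in Kit+, 5.85 to 6.64 in Kit+D and 5.296 to 5.64 in Kit+J. Kit+D replicate 1 had the highest mean of the 12 myeloid markers, 8.33 against 4.65 to 7.21 on the other arrays, with Csf1r at 8.56 and Lyz2 at 8.12. Its germ cell mean of 5.61 (10 markers, Pou5f1 4.75) was far below the 8.89 and 9.50 of the other Kit+D arrays. In both OP9-Dll4 groups replicate 3 had the highest signals of the stromal gene Mgp, 10.55 and 9.75, against 4.52 to 6.82 elsewhere. Acta2 was also highest there (9.92 and 9.38), but Col1a1 was not (6.90 and 6.485, up to 7.10 elsewhere). The mean of 12 stromal genes was 7.07 and 6.46 on these arrays, and 6.72 on Kit-D replicate 2, which was kept. No array was set aside for a high germ cell mean. The part of myeloid, germ and stromal cells in the results below was not tested. Results are also given without Kit+D replicate 1 and replicate 3 of both OP9-Dll4 groups, named below as the 3 arrays with markers of other cells. In sorted bulk samples, fewer cells of a type and less RNA per cell cannot be told apart.

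**Figure D1:**
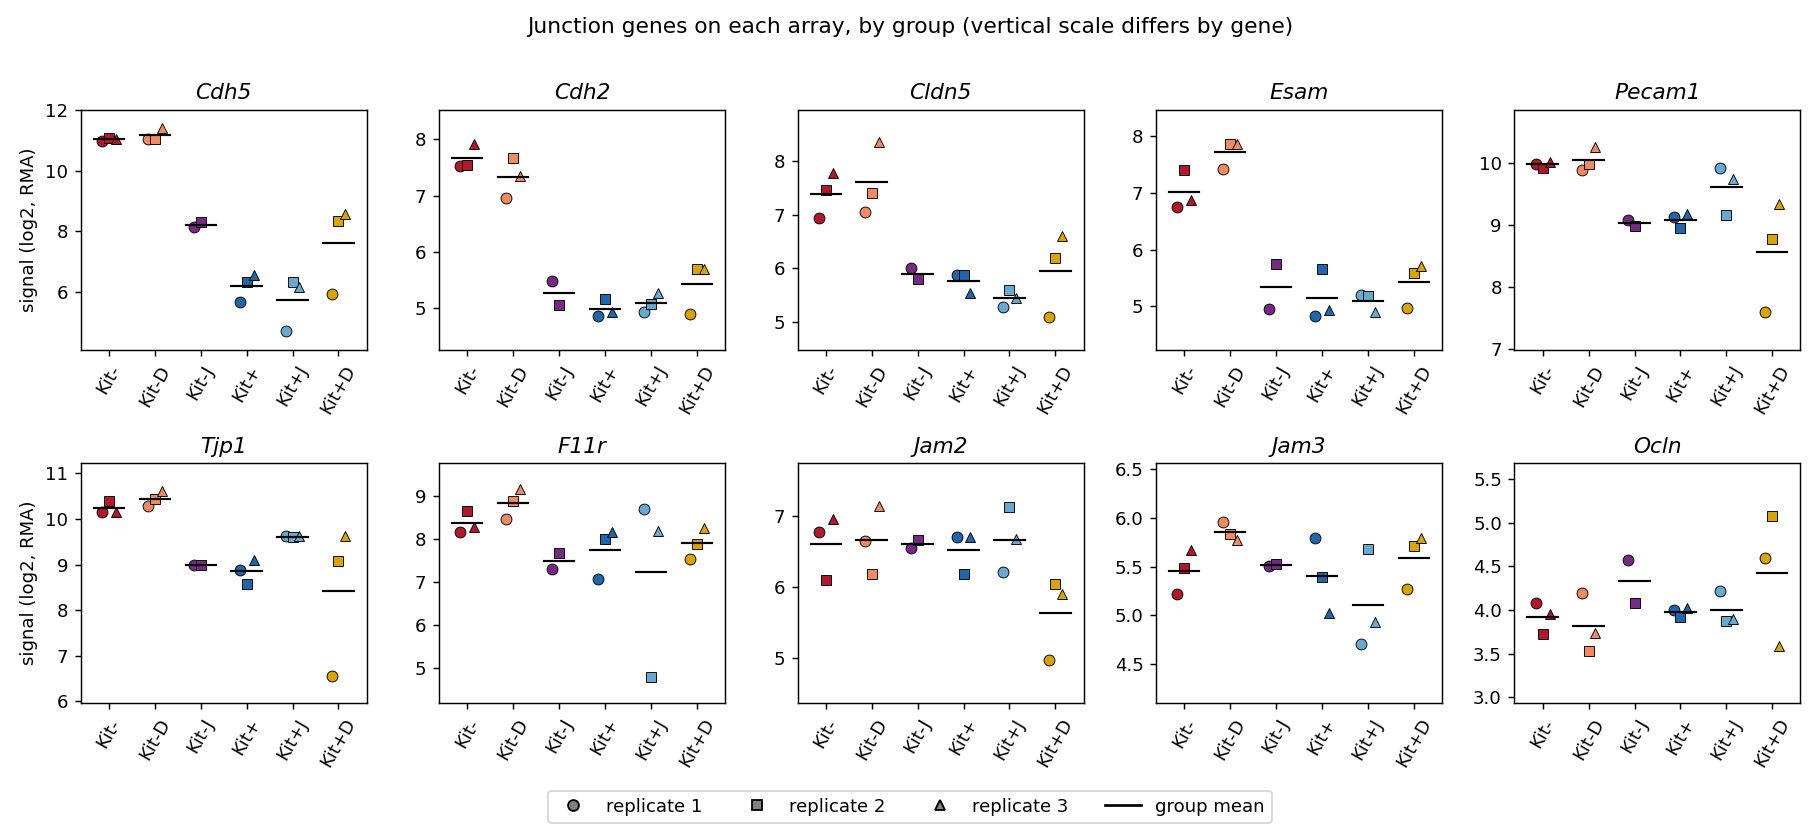
Log2 signal of each member gene on each array (vertical axis; its range differs between panels), by group (horizontal axis); point shape gives the replicate and the bar the group mean. Cdh5, Cdh2, Cldn5 and Esam stand higher in Kit- and Kit-D than in any other group. Kit+D replicate 1 is the lowest array for Pecam1 (7.60) and Tjp1 (6.56).

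Cdh5, Cdh2, Cldn5 and Esam were higher in the endothelial groups Kit- and Kit-D than in the other 4 groups. Cdh5 was still bright on the Kit-J arrays and Kit+D replicates 2 and 3, at the level of 88.6% to 91.1% of genes or above. The other members followed this order of groups only in part (Pecam1, Tjp1, F11r) or not at all (Jam2, Jam3, Ocln). In limma's test over all 19937 genes, at an adjusted p under 0.05, 4 of 10 members were lower in Kit+ than in Kit-, where 3.23% of all genes were called in either direction and 2.67% as lower. In Kit-J against Kit-, 3 members were lower (2.14% of genes called, 1.89% lower), and in Kit-J against Kit-D 4 were (9.37% called, 6.07% lower). In Kit+D against Kit-D, 6 members were lower (13.1% called, 6.62% lower). No member was called as higher in any of these. Arrays of the first group lay wholly below those of the second for 6 members in Kit+ against Kit- (10.5% of genes), 7 in Kit-J against Kit- (12.8%), 8 in Kit-J against Kit-D (18.9%) and 8 in Kit+D against Kit-D (14.3%). The median difference of the 10 members was −1.14 (log2) in Kit+ against Kit-, −1.10 in Kit-J against Kit-, −1.41 in Kit-J against Kit-D and −1.56 in Kit+D against Kit-D, beside medians of all genes of 0.07, 0.09, 0.11 and 0.05. These comparisons share arrays (Kit-, Kit-J and Kit-D each enter 2 of them), so their counts are not separate pieces of evidence.

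No member was called by limma in Kit-D against Kit- (0.171% of genes called; 1 member, Esam, at an unadjusted p under 0.05; Esam and Jam3 wholly above, as were 12.4% of genes), in Kit+J against Kit+ (0.0201%; 0 members), in Kit+D against Kit+ (1.42%; 2 members, Cdh5 and Jam2), in Kit+J against Kit+D (2.25%; 4 members, Cdh5, Pecam1, Tjp1 and Jam2) or in Kit+J against Kit-J (0.0903%; 1 member, Cdh5). The intervals below show how large a difference these arrays leave possible.

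Cdh5, the endothelial cadherin, had the widest range of the members. Its log2 signal was 11, 11.10 and 11.04 in Kit- and 11.06, 11.05 and 11.42 in Kit-D. On Kit+ arrays it was 5.65, 6.31 and 6.55, and on Kit+J arrays 4.68, 6.33 and 6.17. Every Kit- and Kit-D array lay above every Kit+ and Kit+J array. The Kit-J arrays, at 8.15 and 8.29, lay between these levels, below every Kit- and Kit-D array and above every Kit+ and Kit+J array. Kit+D was split, with 5.93 on replicate 1, inside the range of Kit+ and Kit+J, and 8.33 and 8.58 on the others.

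Cdh5 was 29.3-fold lower in Kit+ than in Kit- (log2 difference −4.87, standard error 0.55, adjusted p = 7.65e-05), and this was called in each of the 17 fits that leave out 1 array. In Kit-J it was 7.08-fold lower than in Kit- (−2.82, standard error 0.62, adjusted p = 0.0258), a call that was lost without Kit- replicate 1, 2 or 3 (adjusted p = 0.0703, 0.077 and 0.0775) and without Kit-J replicate 1 or 2 (0.204 and 0.0594). Against Kit-D, within the cultured arrays, Kit-J was 7.75-fold lower (−2.95, standard error 0.62, adjusted p = 0.00881), and this was lost without Kit-J replicate 1 (0.0895). Kit+D was 11.8-fold lower than Kit-D (−3.56, standard error 0.55, adjusted p = 0.000815), and 6.59-fold lower without Kit+D replicate 1 (−2.72, adjusted p = 0.000354). The step from Kit-J down to Kit+J was −2.50 (95% interval −3.81 to −1.18) with arrays that did not overlap, as for 9.97% of all genes in that direction, but the adjusted p was 0.145, and it was 0.0149 without Kit+D replicate 1. The step from Kit-J down to uncultured Kit+, a comparison added after the levels were seen, was of like size (Kit-J higher by 2.05 on the log2 scale, 95% interval 0.74 to 3.36, adjusted p = 0.336, with 0.0502% of genes called). Kit+J against Kit+D gave −1.89 (95% interval −3.06 to −0.71, adjusted p = 0.0876). That difference was called without Kit+D replicate 1 (−2.73, adjusted p = 0.00487), and Cdh5 was then also higher in Kit+D than in Kit+ (2.28, adjusted p = 0.0101, against 1.44 and 0.196 with it).

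Cdh2, the cadherin named for neural tissue that endothelial and mesenchymal cells also carry, was high only in Kit- and Kit-D. Its log2 signal was 7.52, 7.55 and 7.93 in Kit- and 6.96, 7.67 and 7.35 in Kit-D. It was 5.47 and 5.05 in Kit-J and 4.85, 5.16 and 4.93 in Kit+. In Kit+J it was 4.92, 5.06 and 5.26, and in Kit+D 4.88, 5.69 and 5.69. No array of the 4 low groups reached the lowest Kit-D array, and each low group overlapped with the next. Kit-J replicate 2 lay inside the Kit+ range.

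Cdh2 was 6.44-fold lower in Kit+ than in Kit- (log2 difference −2.69, standard error 0.23, adjusted p = 7.56e-06), 5.3-fold lower in Kit-J than in Kit- (−2.41, standard error 0.26, adjusted p = 0.000188), 4.19-fold lower in Kit-J cells than in Kit-D cells (−2.07, standard error 0.26, adjusted p = 0.000238) and 3.75-fold lower in Kit+D than in Kit-D (−1.91, standard error 0.23, adjusted p = 0.000132). These 4 calls were kept in every alternative fit that was run, with the highest adjusted p at 0.0175. Between Kit+J and Kit-J the difference was −0.18 (95% interval −0.74 to 0.38), and between Kit-J and uncultured Kit+ it was 0.28 (95% interval −0.28 to 0.84).

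Cldn5, whose protein seals endothelial tight junctions, had a log2 signal of 6.94, 7.47 and 7.77 in Kit- and 7.06, 7.42 and 8.36 in Kit-D. It was 6 and 5.81 in Kit-J, 5.87, 5.87 and 5.54 in Kit+ and 5.27, 5.60 and 5.44 in Kit+J. In Kit+D it was 5.09, 6.19 and 6.60, with replicate 1 again the lowest. The 4 low groups lay close together, and none of their arrays reached a Kit- or Kit-D array.

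Cldn5 was 3.11-fold lower in Kit+ than in Kit- (log2 difference −1.64, standard error 0.36, adjusted p = 0.0189). That call was lost without Kit- replicate 2 or 3 (adjusted p = 0.0695 and 0.0954) and without any of the Kit+ replicates (0.0542, 0.0517 and 0.0876). It was 3.26-fold lower in Kit-J cells than in Kit-D cells (−1.71, standard error 0.40, adjusted p = 0.0177), lost without Kit-J replicate 1 or 2 (0.105 and 0.0568) and without Kit-D replicate 3 (0.0682), and 3.14-fold lower in Kit+D than in Kit-D (−1.65, standard error 0.36, adjusted p = 0.00762). Kit-J against Kit- gave −1.49 (95% interval −2.35 to −0.63) and an adjusted p of 0.081. It was 0.0444 without Kit-D replicate 3, 0.0203 without Kit+D replicate 1 and 0.0455 without Kit+D replicate 3. These arrays belong to neither group compared and act through the spread that the groups share in the model. Without the 3 arrays with markers of other cells, the Kit+D difference from Kit-D was −1.05 (adjusted p = 0.0664). Fits of only the groups compared called Cldn5 neither there (0.0894) nor in Kit-J against Kit-D (0.0523), and called it in Kit-J against Kit- (0.0487).

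Esam, an adhesion receptor of endothelial contacts and platelets, had the same order of groups as Cldn5. Its log2 signal was 6.75, 7.41 and 6.88 in Kit- and 7.42, 7.86 and 7.86 in Kit-D, so that every Kit-D array was above every Kit- array (0.70 higher, 95% interval 0.12 to 1.29, adjusted p = 0.343). It was 4.96 and 5.74 in Kit-J, 4.84, 5.65 and 4.94 in Kit+, 5.19, 5.17 and 4.91 in Kit+J and 4.97, 5.59 and 5.72 in Kit+D. These 4 low groups overlapped, and none of their arrays reached the lowest Kit- array. Esam was 3.65-fold lower in Kit+ than in Kit- (−1.87, standard error 0.27, adjusted p = 0.000771), 5.16-fold lower in Kit-J cells than in Kit-D cells (−2.37, standard error 0.31, adjusted p = 0.00028) and 4.88-fold lower in Kit+D than in Kit-D (−2.29, standard error 0.27, adjusted p = 0.000119). In Kit-J it was 3.17-fold lower than in Kit- (−1.67, standard error 0.31, adjusted p = 0.00907), which was not called without Kit-J replicate 1 (−1.27, adjusted p = 0.181) or with only those groups in the fit (0.0522). Without the 3 arrays with markers of other cells, Cdh5, Cdh2 and Esam were again called as lower in each of the 4 comparisons above, while Cdh5 was not called in Kit+D against Kit+ (adjusted p = 0.0712).

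The levels of these 4 genes moved beside the endothelial markers. Over the 17 arrays, the Pearson r with the mean of the 13 endothelial markers was 0.977 for Cdh5, 0.959 for Cdh2, 0.958 for Esam and 0.938 for Cldn5. The deviations from the group means gave 0.834, 0.452, 0.627 and 0.738. These values describe arrays that fall into high and low groups and share their RNA between both measures. Among the 13 markers themselves, 12 were lower in Kit+ than in Kit-, 11 in Kit-J than in Kit-, 12 in Kit-J cells than in Kit-D cells and 13 in Kit+D cells than in Kit-D cells.

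Markers of other cells moved in the same comparisons. Of 12 stromal genes (Pdgfra, Dcn and others), 3 were lower in Kit+ than in Kit-, 1 in Kit-J than in Kit-, 3 in Kit-J cells than in Kit-D cells and 4 in Kit+D cells than in Kit-D cells, and 11 had every Kit+ array below every Kit- array. Their mean ran from 6.05 to 6.30 on Kit- arrays and from 5.89 to 7.07 on Kit-D arrays. It was 5.03 to 5.18 on Kit+ arrays, 5.34 and 5.65 on the Kit-J pair, 4.90 to 5.75 on Kit+J arrays and 4.94 to 6.46 on Kit+D arrays. Its r with Cdh5 was 0.822 over the 17 arrays and 0.507 between deviations from group means. Of 5 erythroid genes, the embryonic globin genes Hba-x and Hbb-y were lower in Kit+ than in Kit- (−3.95 and −4.03). They were also lower in Kit-J than in Kit- (−3.13 and −2.79) and in Kit-J cells than in Kit-D cells (−3.19 and −3.15). Neither was called in Kit+D against Kit-D. Only these 2 had a negative difference in those 3 comparisons, where the medians of the 5 were 0.023, 0.155 and 0.176. The other 3 had every Kit-J array above every Kit- array, as had 3930 of all 19937 genes. The mean of the 5 ran from 6.99 to 7.60 on Kit- arrays, from 6.75 to 7.72 on Kit-D arrays and from 6.998 to 8.004 on Kit+D arrays. On Kit+ arrays it was 5.80 to 6.05, on the Kit-J pair 6.09 and 6.53, and on Kit+J arrays 5.36 to 5.45. Of 5 megakaryocytic genes, 1 was lower in Kit+ than in Kit- and 0 in Kit-J than in Kit-. In Kit-J against Kit-D 1 was lower, and in Kit+D against Kit-D also 1. Their mean ran from 6.59 to 7.78 on Kit- arrays and from 6.945 to 8.45 on Kit-D arrays. On Kit+ arrays it was 5.53 to 6.19, and on the Kit-J pair 6.66 and 6.68. It was 5.31 to 6.38 on Kit+J arrays and 5.80 to 7.48 on Kit+D arrays. Of 10 germ cell markers, 1 was higher in Kit+ than in Kit-, 1 in Kit-J than in Kit-, 8 in Kit-J cells than in Kit-D cells and 4 in Kit+D cells than in Kit-D cells. The r of Cdh5 with the germ cell mean was −0.555 over the 17 arrays and 0.729 between deviations from group means. The deviations of Cdh5 were widest in Kit+D (standard deviation 1.46) and Kit+J (0.909). The part of these cells in the fall of Cdh5, Cdh2, Cldn5 and Esam was not tested.

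**Figure D2:**
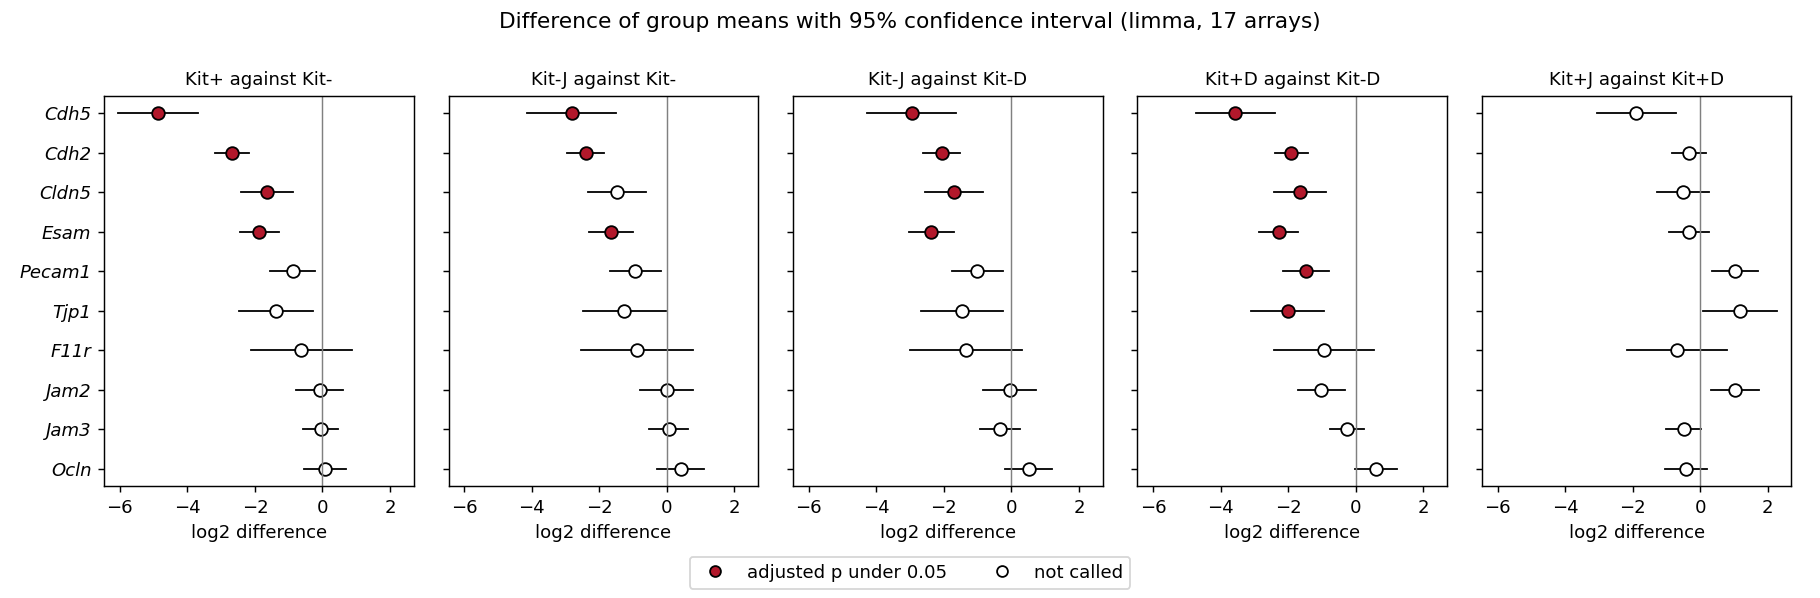
Difference of group means (log2, horizontal axis) with its 95% confidence interval for each member (vertical axis) in 5 comparisons, from limma on 17 arrays; filled points have an adjusted p under 0.05. Cdh5, Cdh2 and Esam are filled and below 0 in the first 4 panels, from −4.87 to −1.67, and no member is filled in Kit+J against Kit+D.

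Pecam1 and Tjp1 followed another course. The log2 signal of Pecam1 was 9.98, 9.92 and 10.02 in Kit-. The Kit-D arrays were at 9.89, 9.97 and 10.25, those of Kit+J at 9.92, 9.17 and 9.74. It was 9.14, 8.96 and 9.17 in Kit+ and 9.08 and 8.98 in Kit-J. In Kit+D it was 7.60, 8.77 and 9.34. All samples had been gated on its protein, and 16 of the 17 arrays were at 8.77 or above, the exception being Kit+D replicate 1. Kit+J overlapped with Kit-D, and its lowest array was inside the Kit+ range.

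The log2 signal of Tjp1, the ZO-1 scaffold gene, was 10.16, 10.40 and 10.16 in Kit- and 10.29, 10.43 and 10.62 in Kit-D. It was 9.62, 9.60 and 9.62 in Kit+J, below every Kit- array and above every Kit-J (8.98 and 8.98) and Kit+ array (8.89, 8.58 and 9.10). In Kit+D it was 6.56, 9.08 and 9.63. Kit+D replicate 1 was again the lowest of all 17 arrays.

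In Kit+D against Kit-D, Pecam1 was 2.76-fold lower (log2 difference −1.47, standard error 0.32, adjusted p = 0.00738) and Tjp1 4.06-fold lower (−2.02, standard error 0.51, adjusted p = 0.0179). The Tjp1 call was lost without Kit-D replicate 2 or 3 (adjusted p = 0.0531 and 0.0624) and in the OP9-Dll4 arrays alone with the replicate number as a block (0.0789). With only Kit+D and Kit-D in the fit neither gene was called (0.0899 for Pecam1 and 0.154 for Tjp1), while both were called without the 3 arrays with markers of other cells (Pecam1 −1.16, adjusted p = 0.025; Tjp1 −1.28, adjusted p = 0.00678). Without Kit+D replicate 1 alone the Tjp1 difference was −1.09 (adjusted p = 0.00159). In the other 3 comparisons named above, the differences of both genes missed the threshold although arrays did not overlap. Pecam1 gave −0.89 in Kit+ against Kit- (adjusted p = 0.189), −0.94 for Kit-J against Kit- (0.248) and −1.003 for Kit-J against Kit-D (0.0859). Tjp1 gave −1.38 (0.21), −1.26 (0.352) and −1.46 (0.117) in the same comparisons. Without Kit+D replicate 1, the lowest array of both genes, all 6 were called. Kit+D enters none of these comparisons, and leaving that array out changed the spread that the groups share in the model. The adjusted p was then 0.0161, 0.032 and 0.00953 for Pecam1 and 0.000151, 0.00172 and 0.000234 for Tjp1, at the same differences. Kit+J and Kit+ gave a Tjp1 difference of 0.76 (95% interval −0.34 to 1.85, adjusted p = 0.907), and Kit+J and Kit+D gave 1.19 (0.10 to 2.28, adjusted p = 0.225), which was called without Kit+D replicate 3 (1.79, adjusted p = 0.0377). The corresponding Pecam1 difference between Kit+J and Kit+D was 1.04 (0.36 to 1.72, adjusted p = 0.0988) and, without Kit+D replicate 3, 1.43 (adjusted p = 0.0117). For Pecam1 in Kit-J against Kit-D the adjusted p was also 0.0353 without Kit+D replicate 3.

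Pecam1 and Tjp1 varied together, with an r of 0.955 over the 17 arrays and 0.895 between their deviations from group means. The r of Pecam1 with the germ cell mean was −0.0903 over the 17 arrays and 0.903 between deviations. With the myeloid mean it was −0.371 and −0.777 for Pecam1 and −0.45 and −0.84 for Tjp1. With the endothelial mean it was 0.616 and 0.576 for Pecam1 and 0.673 and 0.737 for Tjp1. Kit+D replicate 1, low in both genes, had the myeloid and germ cell values given above. The values between deviations rest largely on the Kit+D arrays, where the standard deviation was 1.64 for Tjp1 and 0.889 for Pecam1. In the other groups it was at most 0.261 and 0.395. No r was computed without Kit+D replicate 1. The part of these cells in the Pecam1 and Tjp1 results was not tested.

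F11r, which encodes JAM-A of tight junctions, leucocytes and platelets, had a log2 signal of 8.16, 8.65 and 8.29 in Kit- and 8.48, 8.90 and 9.16 in Kit-D. It was 7.31 and 7.69 in Kit-J, 7.08, 7.999 and 8.16 in Kit+ and 7.55, 7.90 and 8.27 in Kit+D. In Kit+J it was 8.71, 4.79 and 8.18, so that 1 array lay far below the other 16. No comparison of F11r was called on all arrays. For Kit-J against Kit-D it was called with only those groups in the fit (0.0333). Without Kit+J replicate 2 it was lower in Kit-J cells than in Kit-D cells (−1.35, adjusted p = 0.0198, against 0.274 with it) and lower in Kit+D than in Kit-D (−0.94, adjusted p = 0.0456, against 0.41). In the OP9-Dll4 arrays alone with the replicate number as a block, the latter was also called (adjusted p = 0.0301). Kit+J replicate 2 belongs to neither comparison, and its removal changed the spread shared by the groups, not these differences. The difference between Kit+J and Kit+ turned from −0.52 to 0.70 without that array, and neither was called.

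Jam2 and Jam3 encode the JAM proteins of endothelium and its partners in leucocyte passage. The log2 signal of Jam2 lay between 6.10 and 7.14 on all 14 arrays outside Kit+D, and at 4.97, 6.04 and 5.91 in Kit+D. Every Kit+D array was therefore below every other array, though by a small margin (6.04 against 6.10). Kit+D against Kit-D gave −1.02 (95% interval −1.72 to −0.32, adjusted p = 0.0543). The test was passed with dim genes removed (0.0423) and without Kit- replicate 2, Kit-D replicate 2, Kit+J replicate 1 or Kit+J replicate 2 (0.048, 0.045, 0.0489 and 0.0471). It was −0.38 when replicate 3 of Kit-D and replicates 1 and 3 of Kit+D were left out. The Jam2 difference was −0.08 in Kit+ against Kit- (95% interval −0.78 to 0.62) and in Kit-J against Kit- its interval was −0.79 to 0.78, so that the differences measured for Cdh5 and Cdh2 lay outside these intervals.

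The log2 signal of Jam3 ran from 4.70 to 5.96 over all arrays. Its Kit-D arrays (5.96, 5.83 and 5.77) lay above every Kit- array (5.22, 5.49 and 5.67), by 0.39 in the mean (95% interval −0.12 to 0.91, adjusted p = 0.599). Ocln, whose protein belongs to the tight junctions of epithelia and of the brain's vessels, was dim, between 3.53 and 5.08, where the median of all gene means was 5.55. Kit+D held its highest arrays, 4.599 and 5.08, and also a low array at 3.59. Ocln was the only member with a positive difference in Kit+D against Kit-D (0.60, 95% interval −0.02 to 1.22, adjusted p = 0.192). It was called without Kit+D replicate 3 (1.02, adjusted p = 0.00879) and with arrays weighted (0.89, adjusted p = 0.0257). Without the 3 arrays with markers of other cells the difference was 1.22, with 1 Kit+D array left, the highest of all arrays for Ocln (5.08). Without Kit+D replicate 3 Ocln was also called in Kit+J against Kit+D (−0.84, adjusted p = 0.0392). In the same fit, Kit-J less Kit-D set against Kit+J less Kit+D was called as positive for Ocln (1.35, adjusted p = 0.0314, against 0.94 and 0.299 on all arrays).

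Whether the stromas differed by the same amount in both Kit fractions was tested as the difference of differences, Kit-J less Kit-D set against Kit+J less Kit+D. It was negative and called for Cdh2 (−1.73, standard error 0.35, adjusted p = 0.0242), Esam (−2.03, standard error 0.41, adjusted p = 0.0241) and Pecam1 (−2.04, standard error 0.48, adjusted p = 0.0433), which is 3 of 10 members where 1.98% of genes were called and 1.36% as negative. In Kit- cells these genes gave −2.07, −2.37 and −1.003 on OP9-Jag1 against OP9-Dll4, and in Kit+ cells −0.34, −0.34 and 1.04. The Pecam1 call was kept in 3 of the 17 fits without 1 array (adjusted p up to 0.138 in the others), the Esam call in 14 (lost without Kit-J replicate 1 and Kit-D replicates 2 and 3, 0.134, 0.0595 and 0.0667) and the Cdh2 call in 12 (lost without Kit-J 1, Kit-J 2, Kit-D 2, Kit-D 3 or Kit+J 3, with 0.0619 the highest). For Tjp1 it was −2.65 (95% interval −4.29 to −1.01, adjusted p = 0.0937), and called without Kit+D replicate 1 (−1.72, 0.0081) or Kit+D replicate 3 (−3.26, 0.0177). For Cdh5 it was −1.07 (−2.83 to 0.70, adjusted p = 0.559). With the replicate number as a block in all arrays the Pecam1 call was lost (adjusted p = 0.0651). Without the 3 arrays with markers of other cells, which leaves 1 Kit+D array, Cdh2 and Esam dropped out (differences −1.45 and −1.79) and Tjp1 came in (−1.91). With only these 4 groups in the fit the Cdh2, Esam and Pecam1 calls were lost (adjusted p = 0.1, 0.0691 and 0.161).

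A second difference of differences, added after the levels were seen, set Kit-J less Kit- against Kit+J less Kit+. It was called for Cdh2 alone among the members (−2.51, standard error 0.35, adjusted p = 0.00432), with 0.582% of genes called, and this was kept in all 17 fits without 1 array. The Cdh5 value was −2.38 (95% interval −4.14 to −0.61, adjusted p = 0.336), the Esam value −1.61 (−2.49 to −0.73, adjusted p = 0.123) and the Tjp1 value −2.01 (−3.65 to −0.37, adjusted p = 0.407). Without Kit+D replicate 1 it was called for Cdh5 (0.0424), Pecam1 (−1.46, 0.0273) and Tjp1 (0.00129). The Esam value was called without Kit-J replicate 2 (−2.003, 0.0424). Uncultured Kit+ cells had a Cdh2 mean of 4.98 and Kit- cells one of 7.67, so that the fractions did not start from the same level.

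Beyond the members, 53 other genes of cell junctions were described. In Kit+ against Kit-, 15 were lower and 0 higher, with a median of −0.29. In Kit-J against Kit-, 8 were lower (median −0.21), in Kit-J against Kit-D 16 (median −0.53), and in Kit+D against Kit-D 18 were lower and 1 (Cldn7) higher (median −0.56). Over all genes, 2.67%, 1.89%, 6.07% and 6.62% were lower in these comparisons, with the medians given above. In Kit-D against Kit- none was called. When the 3 arrays with markers of other cells were left out, 9 were lower in Kit+D against Kit-D and 2 higher, and 12 were lower in Kit-J against Kit-. Leaving out 1 array in turn gave 4 to 12 lower in Kit-J against Kit-, 7 to 18 in Kit-J against Kit-D and 10 to 16 in Kit+ against Kit-.

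Of the 7 catenins and cadherin partners, 4 were lower in Kit+ than in Kit- and 5 were below Kit-D in Kit-J. Ptprb, the phosphatase that binds VE-cadherin, had a mean log2 signal of 8.75 in Kit-, 9.22 in Kit-D, 6.44 in Kit-J and 5.18 in Kit+. It was 11.8-fold lower in Kit+ than in Kit- (−3.56, standard error 0.25, adjusted p = 9.16e-07), 4.94-fold lower in Kit-J than in Kit- (adjusted p = 0.000435) and 6.84-fold lower in Kit-J cells than in Kit-D cells (adjusted p = 4e-05). Ptprm, another receptor phosphatase of cell contacts, was 13-fold lower in Kit+ than in Kit- (−3.70, standard error 0.35, adjusted p = 1.63e-05). Ctnnd1 (p120 catenin, which keeps cadherins at the membrane) was lower by smaller amounts, −1.03 in Kit+ against Kit- (adjusted p = 0.0289) and −1.31 in Kit-J against Kit-D (0.00825). Ctnnb1, the beta-catenin gene, was called in none of these. Jup, the plakoglobin gene, was the only other junction gene called as higher in Kit+D than in Kit+ (1.47, standard error 0.34, adjusted p = 0.0474), with 8.08, 8.14 and 6.79 in Kit+D against 6.12, 6 and 6.51 in Kit+. The Jup call was kept in 4 of the 17 fits without 1 array (adjusted p up to 0.162 in the others) and in 5 of the 9 other alternative fits. It was lost with the replicate block (0.0752) and with only those groups in the fit (0.201).

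Among the 13 scaffold and polarity genes, Cgnl1 (paracingulin, a junction plaque protein) was 5.35-fold lower in Kit+ than in Kit- (−2.42, standard error 0.19, adjusted p = 3.28e-06) and 6.02-fold lower in Kit-J cells than in Kit-D cells (−2.59, standard error 0.21, adjusted p = 1e-05). The signal lay at 7.69 to 7.88 in Kit-, from 8.08 to 8.48 in Kit-D and was at most 5.94 in the other groups. Amotl1 (angiomotin-like 1) was 4.29-fold lower in Kit+ than in Kit- (adjusted p = 0.000807), and Magi3 2.92-fold lower in Kit-J cells than in Kit-D cells (adjusted p = 0.000736). None of the Par complex genes in the list (Pard3, the Pard6 genes, Prkci) was called in the 4 comparisons. Of the 9 claudins and tricellular proteins, 0 were lower in any of these 4 comparisons, and Cldn7 was higher in Kit+D than in Kit-D (1.26, standard error 0.38, adjusted p = 0.0409) with overlapping arrays.

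Of the 9 regulators of the Rap1 and cerebral cavernous malformation pathways, Heg1, a receptor that anchors KRIT1 at endothelial junctions, was lower in each of the 4 comparisons, by 4.72-fold in Kit+ against Kit- (−2.24, standard error 0.25, adjusted p = 7.47e-05) and 5.53-fold in Kit-J against Kit-D (−2.47, standard error 0.28, adjusted p = 0.000116). Heg1 was also 2.45-fold lower in Kit+J cells than in Kit+D cells (−1.29, standard error 0.25, adjusted p = 0.0194), where no member was called. Its Kit+J arrays were 5.79, 5.49 and 6.52, and its Kit+D arrays 7.48, 7.26 and 6.94. That call was lost without the 3 arrays with markers of other cells (adjusted p = 0.09), with only those groups in the fit (0.286) and without Kit+J replicate 2, Kit+D replicate 1 or Kit+D replicate 2 (0.0617, 0.0516 and 0.0704). Pdcd10, which encodes the CCM3 protein, was called as higher in Kit+J cells than in Kit+D cells (0.59, adjusted p = 0.0388), a call kept in 8 of the 17 fits without 1 array and in 4 of the 9 other alternative fits. Rasip1 and Arhgap29, which act with Rap1 on endothelial contacts, were lower in Kit+ than in Kit- (−1.50, adjusted p = 0.00235, and −1.65, adjusted p = 0.0228). Krit1 and Ccm2 were called in none of the 4. Of the 5 other surface proteins, Mcam (CD146) was lower in all 4 comparisons, by 3.69-fold in Kit+ against Kit- (adjusted p = 0.00513) and 5.01-fold in Kit-J against Kit-D (0.00201).

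**Figure D3:**
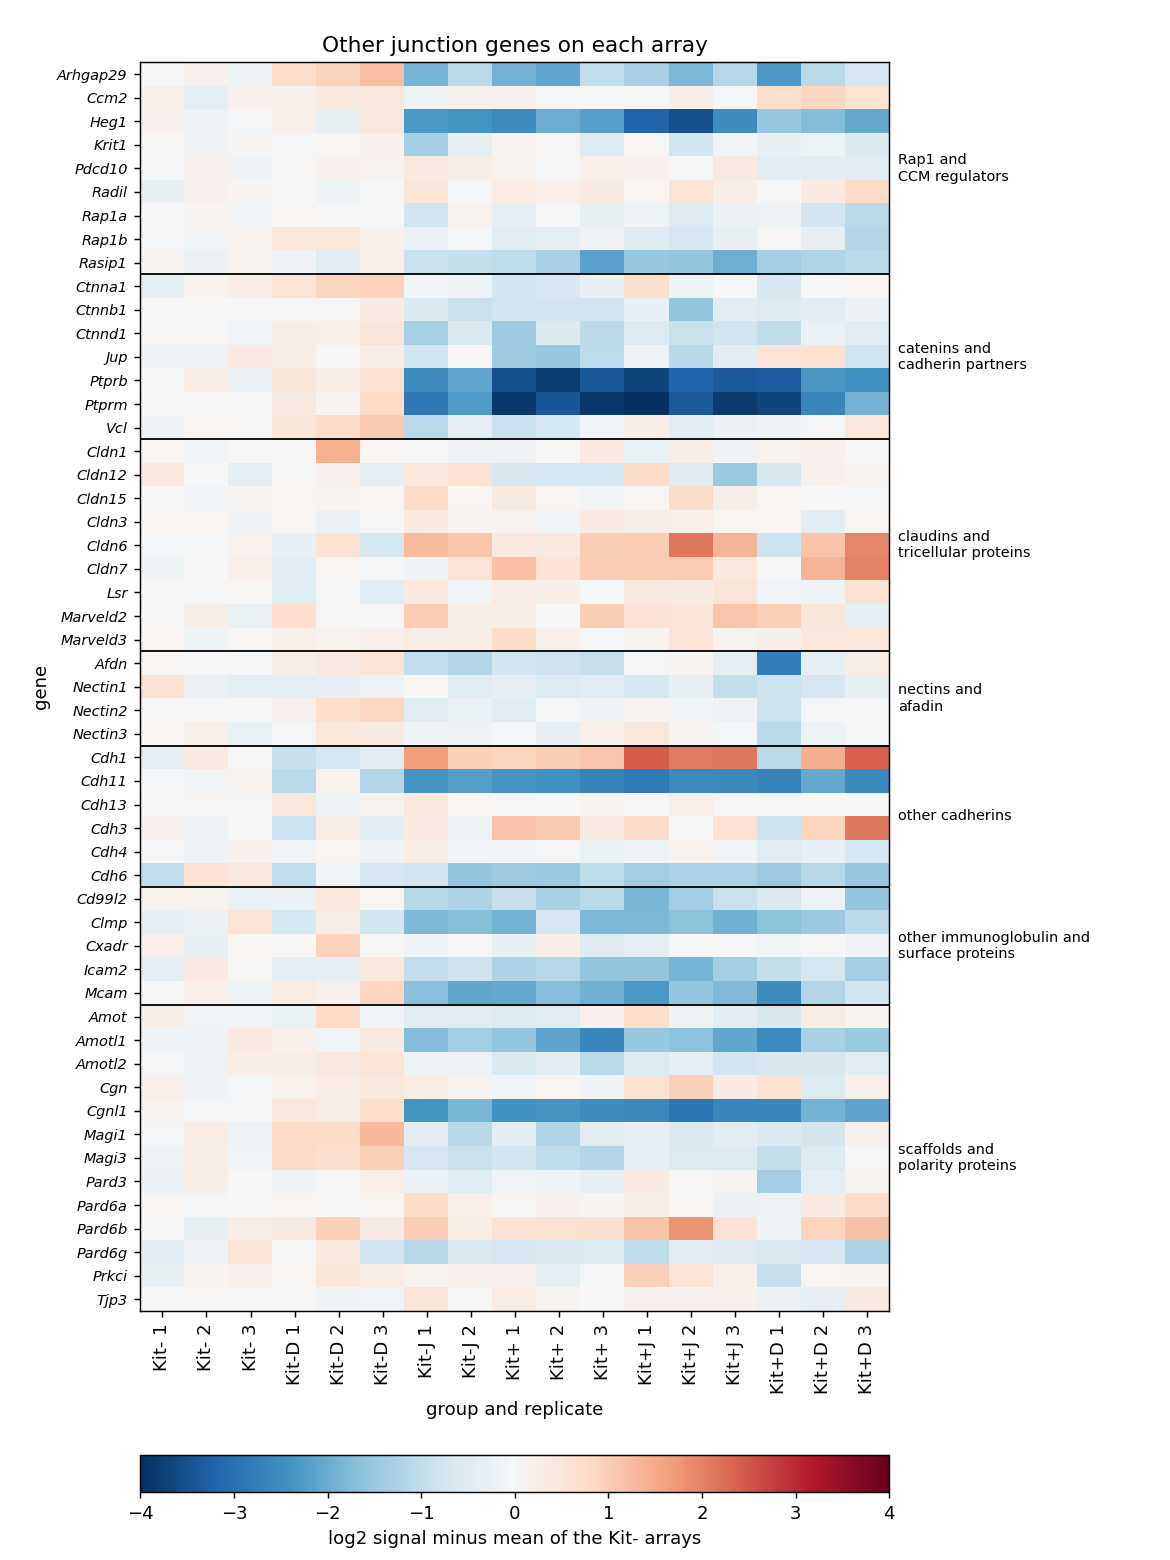
Log2 signal of 53 other junction genes on each array less the mean of the Kit- arrays (colour), by gene (vertical axis, grouped by role) and array (horizontal axis). Ptprb, Ptprm, Cgnl1, Heg1 and Cdh11 are blue, that is low, on every array outside Kit- and Kit-D; Cdh1 is red on most arrays outside Kit- and Kit-D.

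Cdh11, a mesenchymal cadherin, was lower in Kit+ than in Kit- (−2.49, standard error 0.27, adjusted p = 6.19e-05) and was called as lower in each of the 4 comparisons, as none of the other 5 cadherins in the list was. Cdh1, the epithelial cadherin gene, was not called but lay the other way, with log2 signals of 6.20, 6.90 and 6.54 in Kit- and 5.62, 5.86 and 6.09 in Kit-D. On the Kit+ arrays it was 7.44, 7.53 and 7.67. It was 8.22 and 7.50 in Kit-J, 8.98, 8.63 and 8.64 in Kit+J and 5.46, 8.01 and 8.94 in Kit+D. Every Kit+, Kit-J and Kit+J array was above every Kit- and Kit-D array. Over the 17 arrays Cdh1 had an r of 0.913 with the mean of the 10 germ cell markers (0.941 between deviations from group means), and primordial germ cells of this region carry Kit. The deviations of Cdh1 were widest in Kit+D (standard deviation 1.8, at most 0.507 in the other groups). The germ cell mean was 8.65 and 8.97 in Kit-J, 8.70 to 9.07 in Kit+ and 8.93 to 9.34 in Kit+J, against 7.64 to 7.85 in Kit- and 5.14 to 6.70 in Kit-D. The part of germ cells in the Cdh1 signal was not tested.

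**Figure D4:**
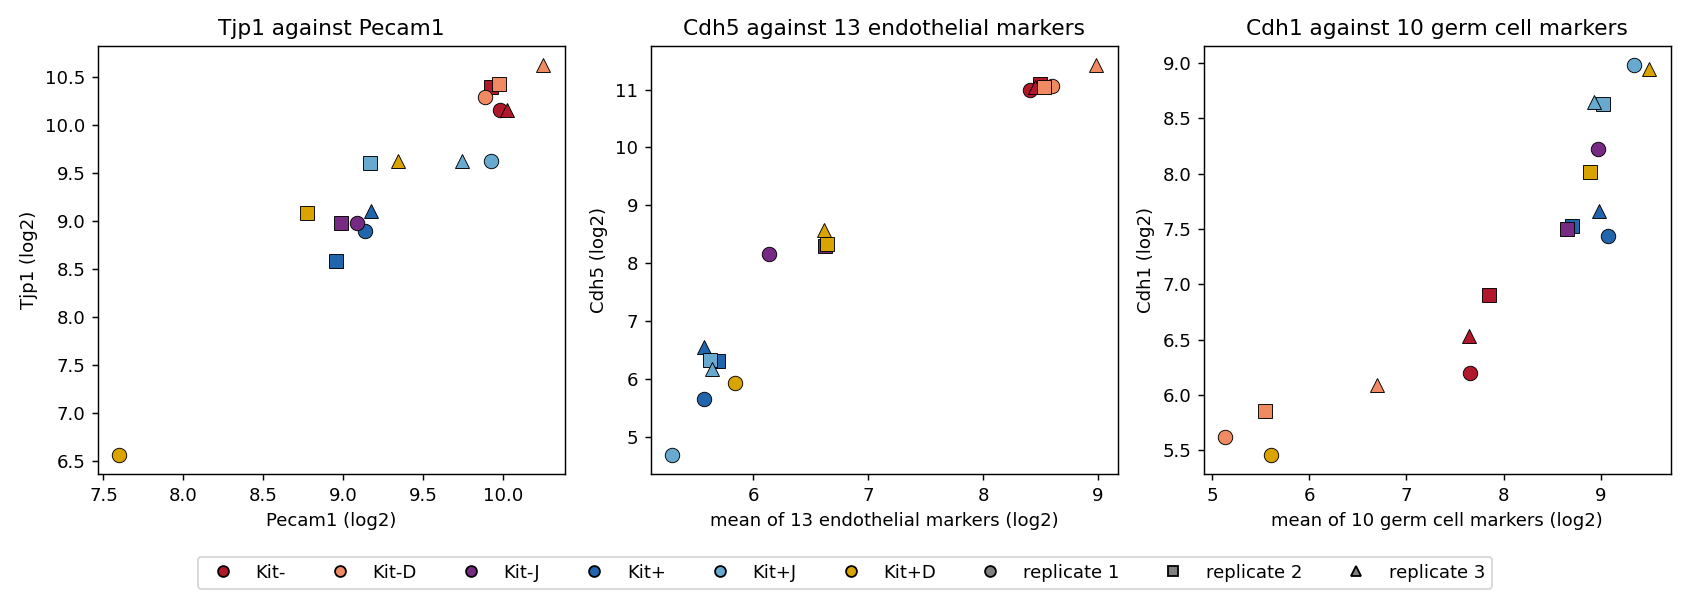
Log2 signals on the 17 arrays: Tjp1 against Pecam1 (left), Cdh5 against the mean of 13 endothelial markers (middle) and Cdh1 against the mean of 10 germ cell markers (right); colour gives the group and shape the replicate. Kit+D replicate 1 is alone at the lower left of the first panel (Pecam1 7.60, Tjp1 6.56), and Kit- and Kit-D form a group of their own in the second.

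The genes with the course most like that of Cdh5, by Pearson r over the 17 arrays, were Tmem255a (0.982), the imprinted gene Mest (0.981), Ptprm (0.979), the laminin gene Lama4 (0.976) and Ldb2 (0.974). For Cdh2 they were the fibrillin gene Fbn2 (0.977), Limch1 (0.974), the channel gene Piezo2 (0.969), Nr2f2, which encodes the venous factor COUP-TFII (0.968), and Lama4 (0.967). For Pecam1 they were Enpp3 (0.92), Stox2 (0.92), Laptm4b (0.916), Pik3r3 (0.912) and Uaca (0.911). For F11r the highest values, Zfp664 (0.952), Rabgap1 (0.901), Snap29 (0.889), Chmp5 (0.883) and Snx6 (0.869), rested in part on Kit+J replicate 2, and without it they were 0.845, 0.69, 0.694, 0.671 and 0.848. Between members, Cdh5 had an r of 0.937 with Cdh2, 0.925 with Cldn5 and 0.911 with Esam, and of 0.579 with Pecam1. These are descriptions over arrays that share groups and array sets.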

How the data were processed

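The values, per the authors' deposited table, are log2 signals after RMA (version not given in the sources used here) of 34760 probe sets on 17 arrays, used as they stand. A few nanograms of RNA per sample had been amplified before labelling. No raw intensities were used here, so background correction could not be varied, and precision is limited by the number of arrays. A single gene symbol was given for 21640 probe sets, several for 1321 and none for 11799. The brightest single-symbol probe set stood for a gene (19937 genes, 21553 of the single-symbol probe sets matched to RefSeq by Entrez number). At most 1.1% of values were identical between any 2 arrays.

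Group means were compared in limma 3.58.1 (R 4.3.3, data.table package 1.17.8) in 1 model of 6 groups over all 17 arrays (11 residual and 3.69 prior degrees of freedom), with moderated variances. P-values were adjusted by Benjamini and Hochberg's method over 19937 genes, and the threshold of a call was 0.05. The study calls its replicates independent sorts of pooled embryos, and p-values measure the spread between them, taken as equal in all 6 groups. An array that stands apart in 1 group therefore also moves the p-values of comparisons without that group. Equal spread did not hold for every member: the standard deviation of Tjp1 was 1.64 in Kit+D and 0.000709 in Kit-J. The members, lists, comparisons and alternatives were chosen with earlier results of these data known. Named are all members, up to 6 called junction genes per comparison with the smallest adjusted p and single genes that a role or count called for, chosen after their values were seen, and the 5 genes most like Cdh5, Cdh2, Pecam1 and F11r by Pearson r, without provisional symbols and small RNAs. The code was tested on simulated data. Python 3.11.15, pandas 2.3.3 and matplotlib 3.10.9 drew the figures and read the promoters. Listed genes without a single-symbol probe set were left out.

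Deviations from the group mean correlated between Kit-D and Kit+D arrays of the same number (0.462, 0.179 and 0.289 over all genes, 0.265, 0.0903 and 0.126 over all probe sets, and up to 0.134 between different numbers). The model had no replicate block, and the number entered as a block in alternative fits. According to the study, Kit- and Kit+ cells of a stroma were re-sorted from shared cultures, but no source says what the numbers mark. The results were recomputed with the compared groups alone, with a trended and robust prior, after dim genes were removed, after scaling to housekeeping genes, after renewed quantile normalization, with arrays weighted, with the mean over a gene's probe sets, with replicate number as a block, without the 3 arrays that carried markers of other cells, and without each array in turn.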

Additional observations from a re-analysis of the deposited data

Results flagged for a closer look

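The difference between stromas differed between the Kit fractions for 3 members on all 17 arrays. Kit-J less Kit-D set against Kit+J less Kit+D gave −1.73 (log2) for Cdh2, −2.03 for Esam and −2.04 for Pecam1, with limma adjusted p of 0.0242, 0.0241 and 0.0433. With only these 4 groups in the fit all 3 calls were lost (0.1, 0.0691 and 0.161). Without the 3 arrays with markers of other cells, which leaves 1 Kit+D array, Cdh2 and Esam dropped out (differences −1.45 and −1.79) and Tjp1 came in (−1.91). The Pecam1 call was kept in 3 of the 17 fits without 1 array. Kit-J less Kit- set against Kit+J less Kit+ gave −2.51 for Cdh2, with an adjusted p of 0.00432. For Tjp1 that same difference of differences was −2.01. Both Kit-J arrays were below all Kit- arrays and all Kit+J arrays above all Kit+ arrays, but the limma adjusted p was 0.407, so the difference was not called on all 17 arrays. Over all genes, 12.8% had every Kit-J array below every Kit- array, and 1131 of 19937 had every Kit+J array above every Kit+ array. The Tjp1 pattern was found by searching all 10 members for arrays that part in opposite directions.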

How the results depend on the processing

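No member reversed its direction among the values that were called. Member calls by comparison moved as follows. The share of all genes called under the same setting stands in brackets. With housekeeping scaling 1 member (Esam) was called in the difference between stromas across Kit fractions (0.737%). With array weights 1 was called there (0.808%), 1 (Cdh5) in Kit+D against Kit+ (5.39%) and 1 (Cdh5) in Kit+J against Kit+D (1.86%). Fitting only the groups compared gave 5 members in Kit-J against Kit- (1.89%), 3 in Kit+D against Kit-D (6.63%), 0 in the difference between stromas (0.221%) and 3 in the difference of the OP9-Jag1 steps (0.878%). Leaving out the 3 OP9-Dll4 arrays with markers of other cells (replicate 3 of Kit-D, 1 and 3 of Kit+D), which leaves 1 Kit+D array that is assumed to vary like the others, 6 were called in Kit-J against Kit- (2.81%), 1 in Kit+J against Kit+D (1.13%), 1 in Kit+J against Kit-J (0.226%) and 3 in the difference of the OP9-Jag1 steps (0.928%).

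With the replicate block over all arrays, 1 member was called in Kit+J against Kit+D (Cdh5, adjusted p = 0.0436; 1.78%) and 2 in the difference of the OP9-Jag1 steps (Esam joined, 0.0343; 0.492%). In the OP9-Dll4 arrays alone with the block, 6 were called in Kit+D against Kit-D, F11r (0.0301) in and Tjp1 (0.0789) out. In the OP9-Jag1 arrays of replicates 1 and 2 alone with the block, 1 was called in Kit+J against Kit-J (Cdh5, −2.72). That fit leaves 1 residual degree of freedom. Its p-value rests on a spread borrowed from other genes, not on that between these arrays, and is not given. The replicate numbers are not known to pair the samples. Same-numbered Kit-J and Kit+J arrays gave correlations of deviations of −0.114 and −0.263. With 2 Kit-J arrays the deviations mirror each other, so these values cannot decide whether the numbers pair samples. Same-numbered Kit- and Kit+ arrays hardly deviated together (0.00644, 0.0323 and 0.065). The block moved no other count of members called by over 1.5 times. Over all genes it took the calls from 283 to 172 in Kit+D against Kit+, from 395 to 260 in the difference between stromas, from 18 to 11 in Kit+J against Kit-J and from 10 to 1 in Kit-J against Kit+.

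Leaving out 1 array at a time gave 3 to 6 members in Kit+ against Kit-, 1 to 6 in Kit-J against Kit- (1, Cdh2, without Kit-J replicate 1), 0 to 0 in Kit-D against Kit-, 0 to 0 in Kit+J against Kit+, 2 to 6 in Kit-J against Kit-D (2 without Kit-J replicate 1), 0 to 1 in Kit+D against Kit+, 0 to 3 in Kit+J against Kit+D, 0 to 1 in Kit+J against Kit-J, 5 to 8 in Kit+D against Kit-D, 0 to 5 in the difference between stromas, 0 to 0 in Kit-J against Kit+ and 1 to 4 in the difference of the OP9-Jag1 steps. In the same fits the genes called ranged from 2.09% to 4.56% of all in Kit+ against Kit-, from 0.527% to 4.72% in Kit-J against Kit-, from 2.53% to 13.7% in Kit-J against Kit-D, from 0.567% to 6.23% in Kit+J against Kit+D, from 7.89% to 15.4% in Kit+D against Kit-D and from 0.456% to 4.07% in the difference between stromas. The share ran from 0.00502% to 0.747% in Kit-D against Kit- and from 0% to 0.0903% in Kit+J against Kit+. In Kit+D against Kit+ it ran from 0.176% to 2.72%, and in Kit+J against Kit-J from 0.015% to 1.94%. For Kit-J against Kit+ it was 0% to 1.63%, and for the difference of the OP9-Jag1 steps 0.191% to 1.49%. Where 1 Kit-J array is left, that array is assumed to vary like the other groups. Housekeeping scaling (6 of 8 genes measured) shifted the median of all genes by −0.154 in Kit+ against Kit- and by 0.13, −0.11, −0.108 and 0.129 in Kit+D against Kit+, Kit+J against Kit+D, Kit+J against Kit-J and Kit-J against Kit+. Removing dim genes left 9969 genes and 8 members, without Jam3 and Ocln. The causes were not tested.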
